A study of Mus musculus with 6 samples.

Results

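AP-1 is the transcription factor family that links growth, stress and inflammatory signals to gene expression. Its members carry a basic leucine zipper, with a basic stretch that binds DNA and a zipper that joins 2 proteins into a dimer. Fos proteins cannot pair with themselves and need a Jun partner, whereas Jun proteins pair among themselves as well as with Fos, Batf and Atf proteins. Most FOS and JUN genes are immediate-early genes, whose transcripts rise quickly and briefly when kinases of the MAP kinase cascades are active. Batf and Batf3 lack the activation domains of Fos and act with Jun proteins and the interferon regulatory factors Irf4 and Irf8. Batf3 is known as the factor needed for the cDC1 lineage, the dendritic cells that cross-present antigen to CD8 T cells.

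The 10 genes described here are Fos, Fosb, Fosl1, Fosl2, Jun, Junb, Jund, Batf, Batf3 and Atf3. They were taken by gene name, as a family, from a table of 54532 genes, and all 10 were found. RNA-seq counts were available for 6 libraries of cultured mouse dendritic cells, 3 labelled control and 3 treated with DB2313. DB2313 is a small molecule that the study used to inhibit Spi1 (PU.1), a lineage factor of macrophages and dendritic cells. Nothing else in the labels separated the groups, and the labels gave no genotype, strain, age, dose or time of treatment. The table named the control columns by BMDC, a common short form of bone marrow-derived dendritic cell, and the treated columns by Spi1, so each direction given here depends on taking the latter for the treated libraries. The methods of the study speak of RNA from macrophages or CD8 T cells, while the labels name dendritic cells.

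Library totals ranged from 16146743 to 19764677 counts. A chi-square per degree of freedom of 4.77 to 5.28 separated pairs of control libraries, and of 7.43 to 17.7 pairs of DB2313 libraries, DB2313 replicates 1 and 3 being the most distant pair. Nothing in the labels said that the libraries came from separate cultures or animals, so p-values measure the spread between these libraries, which may be technical. Dendritic cell genes were abundant, with Cd74, the invariant chain of antigen presentation, at 6557 ± 87.7 CPM (counts scaled to a common library size) in control libraries and 5999 ± 608 in treated ones (SD, n = 3 each). The myeloid lysozyme gene Lyz2 was as abundant, at 8751 ± 699 and 7887 ± 348 CPM. The cultures also held transcripts of neutrophils and of mast cells and basophils. The summed level of the 14 neutrophil markers was 5036 to 5545 CPM in control and 5456 to 6798 CPM with DB2313, and that of 16 mast cell and basophil markers 2535 to 2735 and 2583 to 3100 CPM. In such bulk libraries, fewer cells of a type and less RNA per cell cannot be told apart.

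The genes lie on 7 chromosomes. In GRCm38 coordinates, Fos (ENSMUSG00000021250) spans chr12:85473890-85477273 on the plus strand and Batf (ENSMUSG00000034266) lies on the same strand at chr12:85686669-85709087. Batf3 (ENSMUSG00000026630) is at chr1:191097847-191108945 on the plus strand and Atf3 (ENSMUSG00000026628) at chr1:191170296-191218039 on the minus strand. Junb (ENSMUSG00000052837) is at chr8:84974484-84978718 on the minus strand, where it overlaps Prdx2 on the opposite strand, and Jund (ENSMUSG00000071076) at chr8:70698949-70700616 on the plus strand. Since the strand setting of the counting was not stated, reads of Junb and Prdx2 may not be fully separated. Prdx2 itself had 244 ± 7.31 CPM in control libraries and 264 ± 32.8 CPM in treated ones (SD, n = 3 each), a log2 fold change of 0.12 ± 0.08 (SE) with an edgeR adjusted p of 0.455. Jun (ENSMUSG00000052684, chr4:95049034-95052222, minus strand) overlaps the antisense gene Junos, which had 56 to 93 counts per library. Jund overlaps Gm11175, which had no count in any library. Fosl2 (ENSMUSG00000029135) is at chr5:32135801-32157842 on the plus strand and Fosb (ENSMUSG00000003545) at chr7:19302696-19310051 on the minus strand. Fosl1 (ENSMUSG00000024912) is at chr19:5447703-5455945 on the plus strand as the table gives it, and shares 1056 bases of near-identical sequence with a transcript of Ccdc85b, so its few counts are uncertain.

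The 3 genes that passed the test below were Fos, Batf3 and Junb, and the 250 bases before the RefSeq start of each (GRCm38.p6, strand of the gene) are shown because these genes moved in the same direction. Capitals mark matches, on either strand, to TGACG, a half-site bound by CREB and ATF proteins, and to GAGGAA, a core that PU.1 can bind. The windows are chr12:85473640-85473889 for Fos, chr8:84978749-84978998 for Junb and chr1:191098164-191098413 for Batf3.
Fos: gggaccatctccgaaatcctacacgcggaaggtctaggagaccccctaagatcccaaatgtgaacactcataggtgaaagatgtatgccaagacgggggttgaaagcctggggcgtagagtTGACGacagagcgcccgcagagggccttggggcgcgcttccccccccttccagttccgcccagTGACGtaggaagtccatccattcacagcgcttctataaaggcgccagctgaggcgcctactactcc
Junb: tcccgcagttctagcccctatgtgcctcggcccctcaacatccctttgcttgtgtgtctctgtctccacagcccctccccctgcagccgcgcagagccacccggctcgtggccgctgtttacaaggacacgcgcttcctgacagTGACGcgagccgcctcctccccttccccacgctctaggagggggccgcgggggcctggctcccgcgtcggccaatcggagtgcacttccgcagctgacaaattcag
Batf3: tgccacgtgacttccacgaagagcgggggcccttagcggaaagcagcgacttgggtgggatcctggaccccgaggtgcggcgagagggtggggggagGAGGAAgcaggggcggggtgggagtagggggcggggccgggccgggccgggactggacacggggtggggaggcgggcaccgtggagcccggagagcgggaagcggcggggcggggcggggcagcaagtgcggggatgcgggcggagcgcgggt

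Among the 9 genes with such a window in RefSeq, TGACG was found in 5, against 17.8% of 32851 windows of the same length. It stood 129 and 66 bases before the start of Fos and 106 bases before that of Junb. GAGGAA was found in 2 of the 9, against 23.3% of all windows, 153 bases before the start of Batf3 and 149 bases before that of Atf3. The AP-1 pattern TGANTCA, which 6.75% of all windows hold, was in none of the 9. Nor was the CArG box of the serum response factor, which 1.47% hold. With 9 windows, none is close to these shares. The Jun window holds the sequence TGACATCA, which the pattern TGANTCA does not match. Sites further upstream and other spellings were not searched for, so whether these genes lack AP-1 sites or CArG boxes was not tested. These letters describe the windows and are not evidence of binding. The RefSeq start of Fos coincided with the start of the gene in the table, that of Junb was 30 bases away and that of Batf3 567 bases inside the gene. The RefSeq starts of Fosl2, Jund and Atf3 were 671, 1210 and 34706 bases from those in the table. Their windows may not lie at the starts used in these cells.

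To ask which of these genes differed with DB2313, all 14174 genes that passed the filter on low counts were compared with the quasi-likelihood test of edgeR, and a gene was called at a Benjamini-Hochberg adjusted p under 0.05. Of the 10 genes, 9 were tested and Fosb was too low. Fos, Batf3 and Junb fell with DB2313, which is 3 of 9, whereas 5.94% of all genes tested were called lower. None was called higher, against 4.66% of all genes tested. With 9 genes, none called higher is close to that share. No gene of the family was higher at an unadjusted p under 0.05 in the edgeR test, for which no share over all genes was counted. None was called higher by DESeq2 or limma-voom. The median log2 fold change of the 9 genes was -0.22, and that of all genes tested was 8.2e-04. DESeq2 called the same 3 genes lower, where 5.86% of its genes were called lower and 4.64% higher. All 3 calls were lost without control replicate 1. Without it, Fos changed by -0.42 (adjusted p 0.0529), Batf3 by -0.52 (0.0563) and Junb by -0.27 (0.147, edgeR log2 fold change), so none of the 9 was called. That fit, with fewer libraries, called 485 of 14493 genes lower, against 842 of 14174 with all libraries.

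**Figure D1:**
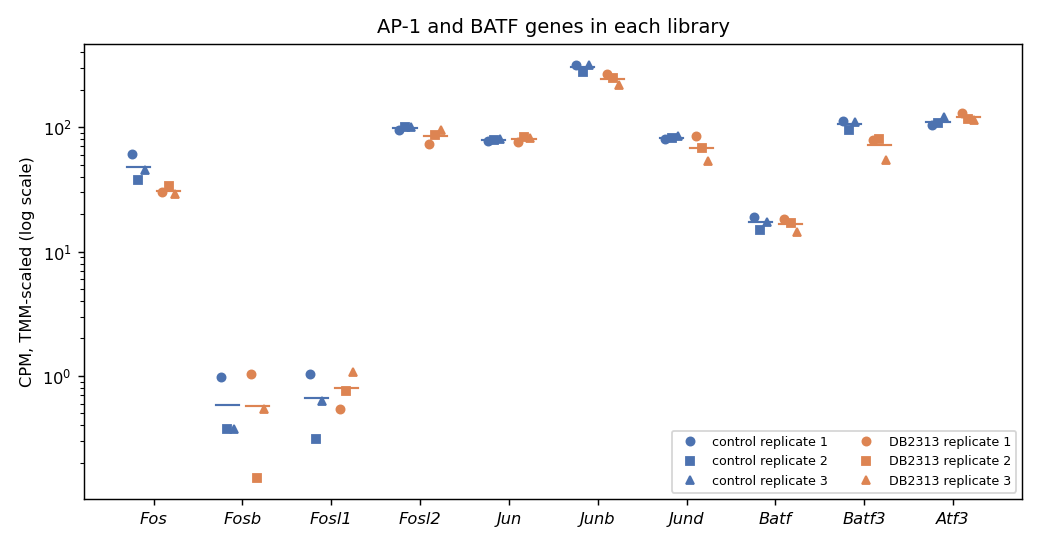
CPM (TMM-scaled, log axis) of the 10 genes in each library; symbols mark the replicate, colours the group and short lines the group means. For Fos, Batf3 and Junb each DB2313 library lies below each control library, while Fosb and Fosl1 lie near 1 CPM or below.

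The FOS subfamily supplies the partners that bind DNA with Jun. Fos, its best known immediate-early member, had 983, 600 and 723 counts in the control libraries and 494, 666 and 486 in the DB2313 libraries, each given in the order of replicates 1 to 3 here and below. Scaled to library size these were 60.4, 37.6 and 45.3 CPM in control and 30.0, 33.4 and 29.2 CPM with DB2313. The groups did not overlap, and control replicate 1 stood above the other control libraries. Fos was 35.4% lower with DB2313, a log2 fold change of -0.63 ± 0.14 (SE, n = 3 each) with an edgeR adjusted p of 0.00796. When each library was omitted in turn, its log2 fold change ran from -0.77 to -0.42.

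Fosl2 encodes Fra-2, a Fos protein without the strong activation domain of Fos. Its values were 94.3, 100.7 and 100.8 CPM in control and 72.6, 86.9 and 94.3 CPM with DB2313. DB2313 replicate 1 was the lowest, and DB2313 replicate 3 was as high as control replicate 1, so the groups overlapped. Its log2 fold change of -0.22 ± 0.09 (SE) did not pass the threshold (edgeR adjusted p 0.157). Without DB2313 replicate 3 it was -0.30, with an adjusted p of 0.0148.

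Fosl1, which encodes Fra-1, and Fosb were close to the limit of detection. Fosl1 had 17, 5 and 10 counts in control and 9, 15 and 18 with DB2313, and its log2 fold change of 0.25 ± 0.53 (SE, edgeR adjusted p 0.827) turned negative without control replicate 2 or without DB2313 replicate 3. Fosb had 16, 6 and 6 counts in control and 17, 3 and 9 with DB2313. A difference in either gene was not detectable at this depth. In each group, the Fosb count of replicate 1 was above those of the other replicates.

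JUN proteins form the other side of the dimer. Junb, which in many settings acts less strongly than Jun and is induced by cytokines, was the most abundant of the 10 genes. Its libraries held 318, 277 and 314 CPM in control and 268, 247 and 220.5 CPM with DB2313. Each treated library was below each control library, but the gap between control replicate 2 and DB2313 replicate 1 was small. Junb was 19.0% lower with DB2313, a log2 fold change of -0.30 ± 0.08 (SE) with an edgeR adjusted p of 0.0278. The call was also lost without control replicate 3 (-0.28, adjusted p 0.138) and without DB2313 replicate 2 (-0.31, adjusted p 0.116).

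Jun, the founding member, was level across the libraries. Its values were 77.6, 79.4 and 80.8 CPM in control and 76.5, 83.9 and 82.0 CPM with DB2313, a log2 fold change of 0.03 ± 0.08 (SE, edgeR adjusted p 0.872). Jund, which is often expressed without stimulation and can restrain growth, was at 80.5, 81.4 and 85.6 CPM in control and at 84.2, 67.5 and 53.5 CPM with DB2313. The treated libraries were spread widely, with replicate 1 at the control level and replicate 3 far below it. The log2 fold change of Jund was -0.27 ± 0.12 (SE, edgeR adjusted p 0.193). It was -0.44 without DB2313 replicate 1 (adjusted p 0.00149), -0.12 without DB2313 replicate 3 (adjusted p 0.405) and -0.34 with an offset for gene length (adjusted p 0.0224).

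Jund, Junb and Batf3 are the members richest in G and C, with 67.1%, 62.6% and 60.7% GC in their longest GENCODE M21 transcripts, against 51.9% for Fos. DB2313 replicate 3 was the library in which these 3 genes were lowest. In CPM, Fos (29.2) and Batf (14.3, with 56.6% GC) were also lowest there, while the other members were not. Why these genes were lowest there was not tested. That library also had lower values for GC-rich genes in general. The median log2 ratio of 319 genes with at least 60% GC to their mean over the libraries was -0.085 in DB2313 replicate 3 and 0.063 in DB2313 replicate 1, and between -0.027 and 0.050 in the other libraries. With an offset for GC content, which was added after these values were seen, the log2 fold change was -0.25 for Jund (edgeR adjusted p 0.124), -0.29 for Junb (0.0143) and -0.56 for Batf3 (0.00332).

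Among the BATF genes, Batf3 had 1839, 1515 and 1762 counts in control and 1300, 1611 and 910 with DB2313, or 113, 95.03 and 110.5 CPM against 78.9, 80.8 and 54.7 CPM. All treated libraries were below the control libraries, and DB2313 replicate 3 was the lowest of the 6. Batf3 was 32.7% lower with DB2313, a log2 fold change of -0.57 ± 0.12 (SE, n = 3 each) with an edgeR adjusted p of 0.00709. Without DB2313 replicate 3 it was -0.41, with an adjusted p of 0.00124. Batf, its close relative that is best known from T helper cells, was at 19.1, 14.9 and 17.4 CPM in control and at 18.4, 17.1 and 14.3 CPM with DB2313. These ranges overlapped almost fully, and its log2 fold change was -0.05 ± 0.13 (SE, edgeR adjusted p 0.880), with a sign that turned without control replicate 1 or without DB2313 replicate 3.

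Atf3, a stress-induced factor that restrains inflammatory genes in macrophages, was at 104, 109 and 120.1 CPM in control and at 131, 117 and 115 CPM with DB2313. The groups overlapped, and the log2 fold change was 0.12 ± 0.08 (SE, edgeR adjusted p 0.406).

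**Figure D2:**
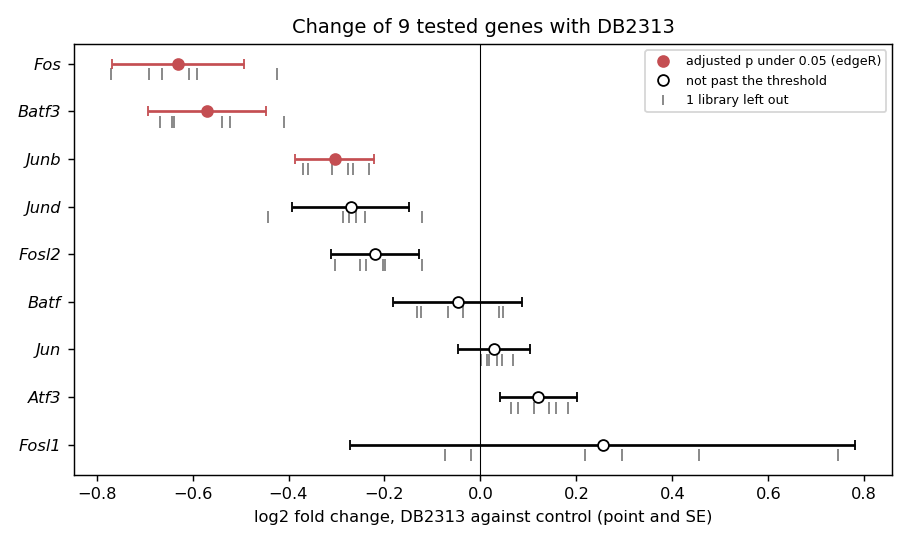
Log2 fold change of the 9 tested genes (DB2313 against control, points with SE bars, edgeR), with grey ticks for the fits that each left out 1 library. Fos, Batf3 and Junb, in red, have an adjusted p under 0.05 with all libraries, and the ticks of Jund run from -0.44 to -0.12.

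All 3 DB2313 libraries were below all 3 control libraries for 3 of the 9 tested genes (Fos, Batf3 and Junb), against 14.5% of all genes tested. They were above the control libraries for none of the 9, against 12.9% of all genes tested. The other 6 genes overlapped between the groups.

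To compare levels between genes, counts were divided by the gene length given in the table and scaled to a common sum per library (TPM). In control the order was Junb (358 ± 26.3 TPM, SD, n = 3), Batf3 (181 ± 16.3), Atf3 (140 ± 8.46), Jund (135 ± 2.66), Jun (67.7 ± 0.717), Fos (55.4 ± 13.8), Batf (33.2 ± 4.14), Fosl2 (27.7 ± 0.890), Fosl1 (1.06 ± 0.593) and Fosb (0.253 ± 0.156). The libraries of neighbouring genes overlapped for Atf3 and Jund and for Jun and Fos, so these neighbours did not differ beyond their spread. With DB2313 the order of Batf3 and Atf3 turned, with Atf3 at 151 ± 3.86 TPM above Batf3 at 120 ± 20.5 TPM and no overlap between them. Batf3 then overlapped with Jund (110 ± 19.0 TPM), and Fos (35.5 ± 2.91 TPM) overlapped with Batf (31.8 ± 2.46 TPM). Division by length mattered most for Fosl2, whose gene length in the table is 9680 bp. It ranked 8 of 10 per length and 4 of 10 by CPM in control.

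Levels summed per length described the make-up of each subfamily. The FOS genes together held 84.5 ± 13.6 TPM in control and 60.8 ± 6.65 TPM with DB2313 (SD, n = 3 each). Fos took 60.1% to 71.0% of this in control and 54.3% to 61.5% with DB2313, and Fosl2 took most of the rest. The JUN genes held 561 ± 26.1 and 466 ± 26.4 TPM, several times the FOS sum in every library. Junb made up 63.9% ± 1.802 of the JUN level in control and 61.7% ± 0.689 with DB2313, and Jun 12.1% ± 0.672 and 14.8% ± 2.11. The BATF genes held 214 ± 20.3 and 152 ± 22.8 TPM, and the share of Batf3 was 83.9% to 84.9% in control and 77.1% to 80.7% with DB2313.

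**Figure D3:**
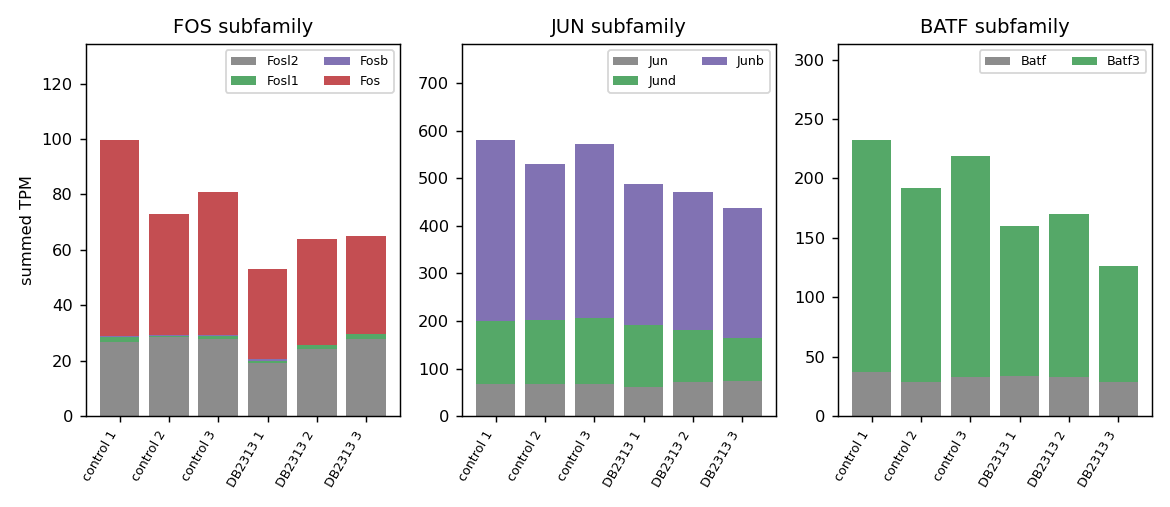
Stacked level per length (TPM) of the FOS, JUN and BATF genes in each of the 6 libraries, bars starting at 0. Batf3 is the larger part of the BATF bars in every library, and the summed BATF level is 214 ± 20.3 TPM in control and 152 ± 22.8 TPM with DB2313.

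Whether a gene moved apart from its relative was examined with count ratios within a library, for 4 pairs. Batf3 counts were 5.91 to 6.37 times those of Batf in control and 3.82 to 4.74 times with DB2313. These ranges were separate. An exact permutation test (two-sided) gave p = 0.1, the smallest that 3 against 3 libraries allow, and 0.4 after adjustment over the 4 pairs. The ratio of Junb to Jun was 3.48 to 4.10 in control and 2.69 to 3.50 with DB2313 (exact permutation p = 0.2, adjusted 0.4). That of Fos to Fosl2 was 0.374 to 0.641 in control and 0.310 to 0.413 with DB2313 (exact permutation p = 0.3, adjusted 0.4), and that of Junb to Jund overlapped fully (exact permutation p = 0.9). With 4 pairs of this size no ratio could reach an adjusted p under 0.05, so these tests leave unanswered whether a gene moved apart from its relative.

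The genes whose log2 CPM followed each of the 3 called genes most closely over the 6 libraries were searched among 5995 genes of sufficient level. For Fos they were Erlin1, 1810013L24Rik and Irf2bp2, with Pearson correlations of 0.990, 0.989 and 0.985. For Junb they were Arsa, Acadl and Dexi (0.999, 0.996 and 0.991), and for Batf3 Rilpl2, Cdk2ap1 and H2afz (0.993, 0.986 and 0.978). With 6 libraries in 2 groups such values are common. A correlation above 0.9 was found for 69 genes with Fos, 160 with Junb and 139 with Batf3, and all points share the same libraries.

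Other immediate-early genes were examined next, since they respond to the same kinases as Fos and Junb. This list and those below were chosen with earlier results of these data known, so their counts beside the background are only descriptions. Of 34 immediate-early genes tested, 9 fell with DB2313 and none rose at an adjusted p under 0.05 (edgeR), against 5.94% and 4.66% of all genes tested. The list had 3 genes higher at an unadjusted p under 0.05, for which no share over all genes was counted. DESeq2 called 9 lower and none higher. Its median log2 fold change was -0.079. Nr4a3, an orphan nuclear receptor, had the lowest log2 fold change, at 188, 237 and 208 CPM in control and 128, 117 and 116 CPM with DB2313 (-0.80 ± 0.09, SE, edgeR adjusted p 2.9e-05). The zinc finger factor Egr2 was next, with -0.67 ± 0.12 (adjusted p 0.00204), followed by Zfp36l1, which speeds mRNA decay, with -0.59 ± 0.09 (adjusted p 8.9e-04). Egr1 was at 31.1, 19.5 and 19.1 CPM in control and 15.4, 17.4 and 14.7 CPM with DB2313 (-0.55 ± 0.17, adjusted p 0.0453). Control replicate 1 was the highest library for Egr1, as it was for Fos. Klf6, Gadd45b, Csrnp1 and Mcl1 fell by 0.47, 0.45, 0.37 and 0.27 on the log2 scale. Csrnp1 overlaps Cx3cr1 on the same strand (60 to 180 counts per library), so their reads may not be fully separated. Over the fits that left out 1 library each, 6 to 11 genes of the list were called lower, with 6 without control replicate 1 or without DB2313 replicate 2. Over the same fits, 411 to 1311 of all genes were called lower. Of 12 heat shock genes, which respond to stress during handling, none was called in either direction by edgeR. For 12 genes this is close to the background of 5.94% and 4.66%. At an unadjusted p under 0.05, 1 was higher and none lower, and DESeq2 called 1 higher. Hspa1b and Hspa1a, named after their values were seen, had 0.915 and 0.414 CPM in control and 1.38 and 0.691 CPM with DB2313. Changes are hard to call at such levels. The part of handling in these results was not tested.

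Of 31 tested basic leucine zipper factors that can pair with or compete with AP-1, 4 fell and 1 rose, against 5.94% and 4.66% of all genes tested, so the count of higher genes was not above the background. Their median log2 fold change was -0.039. Nfe2l3 fell from 6.25 ± 1.13 to 2.01 ± 1.15 CPM, a log2 fold change of -1.61 ± 0.32 (SE, edgeR adjusted p 0.00446). Atf5, an amino acid and stress responsive factor, fell from 57.7 ± 0.574 to 34.8 ± 4.97 CPM (-0.73 ± 0.10, adjusted p 3.0e-04). Nfil3, a factor needed early in cDC1 development, had a log2 fold change of -0.28 ± 0.07 (adjusted p 0.0207). Batf2, the interferon-inducible relative of Batf and Batf3, went the other way, at 15.7, 15.0 and 13.9 CPM in control and 21.6, 19.9 and 25.5 CPM with DB2313. It rose by 0.59 ± 0.12 on the log2 scale (SE, adjusted p 0.00644), and its groups did not overlap. Of the whole list, 2 genes were called lower without DB2313 replicate 2 and 7 without DB2313 replicate 3, where 2 were called higher. Over all genes, the first of these fits called 411 of 14580 lower. The second called 1311 of 14527 lower and 1097 higher. Batf2 overlaps Arl2 (231 to 359 counts per library) and Atf5 overlaps Nup62 (1710 to 2445), both on the opposite strand, so their reads may not be fully separated.

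A list of genes taken as inputs to AP-1, kinases and serum response genes among them, was not limited to genes specific to AP-1. Of its 41 tested genes, 4 fell and 1 rose, against 5.94% and 4.66% of all genes tested, shares close to the background. Their median log2 fold change was -0.054. Srf, the serum response factor that binds the CArG box, fell from 70.5 ± 2.55 to 55.3 ± 2.71 CPM (-0.35 ± 0.08, SE, edgeR adjusted p 0.0102). Rps6ka5, which encodes the kinase MSK1, fell by 0.45 ± 0.09 (adjusted p 0.00337), Map3k1 by 0.35 ± 0.09 (0.0184) and Map3k14 by 0.23 ± 0.07 (0.0398, log2 scale). Without control replicate 3 or DB2313 replicate 2, 1 gene of the list was called lower, and without control replicate 2 there were 2. Those fits called 411 to 471 of all genes lower, against 842 with all libraries. Without DB2313 replicate 1, 2 genes of the list and 789 of all genes were called higher. Mef2c, a MADS box factor, rose from 11.7 ± 0.954 to 23.9 ± 2.74 CPM (1.03 ± 0.13, adjusted p 1.0e-04). Of 18 genes of JUN turnover and AP-1 co-regulation, a list that also held Jund, 1 fell and none rose in edgeR, against 5.94% and 4.66% of all genes tested, which is no more than the background. The gene was Cop1, part of a ubiquitin ligase that removes Jun, with a log2 fold change of -0.33 ± 0.09 (SE, edgeR adjusted p 0.0252), while DESeq2 called 2 genes of the list lower. The count was 0 without control replicate 1 or 2, 2 without DB2313 replicate 1 and 5 without DB2313 replicate 3. Over all genes, these fits called 485, 436, 922 and 1311 lower, in the same order.

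A list of 10 tested genes held partners of Batf3 and Batf together with other regulators. Of these 10, 4 fell and none rose in edgeR or DESeq2, against 5.94% and 4.66% of all genes tested in edgeR. With 10 genes, none called higher is close to the background share. None was higher at an unadjusted p under 0.05 in edgeR, for which no share over all genes was counted. The median log2 fold change was -0.18. Irf4, which binds DNA together with Batf and Jun, was at 139, 160 and 157 CPM in control and 111, 113 and 115 CPM with DB2313 (-0.43 ± 0.08, SE, edgeR adjusted p 0.0018). Zeb2 (-0.48 ± 0.10), Nfil3 (-0.28 ± 0.07) and Bcor (-0.27 ± 0.08) were the others that fell. Irf8, which also acts with Batf proteins, was not called (-0.16 ± 0.08, SE, edgeR adjusted p 0.207). It was named after its value was seen. Without any 1 control library, or without DB2313 replicate 2, 2 genes of the list were called lower. Those fits called 411 to 485 of all genes lower, against 842 with all libraries.

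Of 16 tested genes that depend on Batf3 in cDC1 cells, 1 fell and 1 rose, against 5.94% and 4.66% of all genes tested, so neither count stood apart from the background. The median log2 fold change was 0.022. Of the 20 genes listed, 7 had a mean above 10 CPM, so changes in the others were hard to detect. The counts therefore do not show whether genes that depend on Batf3 changed. Rab7b fell from 56.9 ± 4.26 to 40.1 ± 4.81 CPM (-0.51 ± 0.10, SE, edgeR adjusted p 0.0038). Clec9a, a receptor for dead cells that marks cDC1 cells, rose from 0.769 ± 0.257 to 3.36 ± 0.898 CPM (2.12 ± 0.37, adjusted p 0.0017), a low level in both groups. Its span overlaps that of Clec1b, which had 29 to 56 counts per library. Without DB2313 replicate 3, 4 genes of this list were called lower and 2 higher, in a fit that called 1311 of 14527 genes lower and 1097 higher. Without control replicate 1 or DB2313 replicate 1 there were 2 lower, where 485 and 922 of all genes were called lower.

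Of 35 tested genes described as under AP-1 control in myeloid cells, 8 were lower and 7 higher, against 5.94% and 4.66% of all genes. The list was chosen with earlier results of these data known. Its counts therefore do not show whether AP-1 targets changed more often than other genes. The median log2 fold change of the list was -0.11. The lowest were Arg1, the arginine-splitting enzyme arginase (62.5, 53.3 and 61.3 CPM in control and 21.1, 14.5 and 16.9 CPM with DB2313, -1.76 ± 0.12, SE, edgeR adjusted p 7.1e-07), the receptor gene Met (-1.20 ± 0.09), the secreted phosphoprotein Spp1 (-0.91 ± 0.12) and the cytokine Il1a (-0.84 ± 0.22). The highest included 3 matrix metalloproteinases, while Mmp14 of the same family fell (-0.82 ± 0.08, SE) and Mmp2 (-0.11) and Mmp9 (0.12) did not pass, genes named after their values were seen. Mmp13, the collagenase whose promoter is a textbook AP-1 target, rose from 5.88 ± 1.48 to 23.1 ± 1.57 CPM (1.98 ± 0.16, adjusted p 2.5e-06). Mmp12 rose by 0.98 ± 0.08 and Mmp8, which is also a neutrophil gene, by 0.98 ± 0.09 on the log2 scale, followed by Ccnd1 (0.71 ± 0.10), which drives the cell cycle and overlaps Oraov1 on the opposite strand (291 to 444 counts per library). A list of stress and inflammatory genes tied to Atf3 and Atf4 had 3 lower and 3 higher of 19 tested, against 5.94% and 4.66% of all genes. Its median log2 fold change was -0.019. At its ends were Il12b, a cytokine gene, at -1.02 ± 0.12 and Gdf15 at 0.97 ± 0.16 (log2 fold change ± SE).

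**Figure D4:**
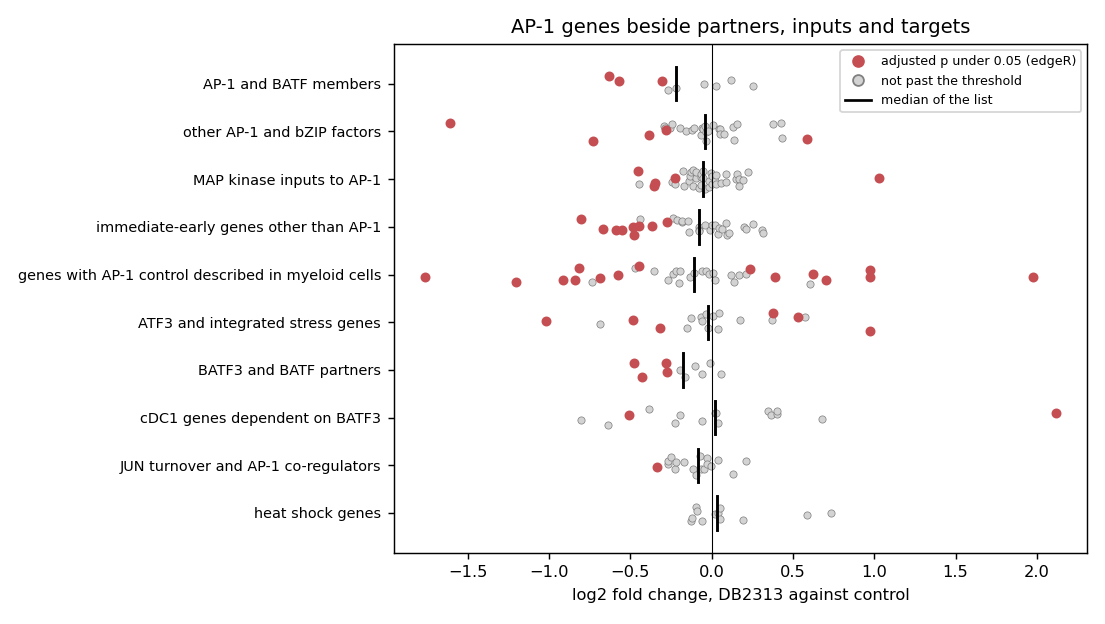
Log2 fold change (DB2313 against control) of the tested AP-1 genes and of 9 lists of related genes; each point is a gene, red with an edgeR adjusted p under 0.05, and black bars are medians. The medians lie between -0.22 for the AP-1 and BATF genes and 0.030 for heat shock genes, and the AP-1 target list has red points on both sides of 0.

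Markers of other cells were set beside these values, and their part in the results was not tested. The counts below stand against 5.94% of all genes tested called lower and 4.66% called higher. Batf3 is itself a marker of dendritic cells. Of 17 tested dendritic cell markers, 2 fell (Itgax and Batf3) and 2 rose (Mgl2 and Clec10a), genes named after their values were seen. Of 16 macrophage markers 10 fell and 2 rose, and their summed level was 10666 to 12077 CPM in control and 9509 to 10408 CPM with DB2313. Most of that sum was Lyz2, which was not called (edgeR adjusted p 0.218). Among neutrophil markers 5 of 14 rose and 1 fell, and 2 of 11 tested mast cell and basophil markers rose. Of 15 T cell markers 1 rose, and their sum was 363 to 424 CPM in control and 367 to 520 CPM with DB2313. The B cell sum was 34.1 to 39.3 CPM in control and 40.9 to 47.1 CPM with DB2313, and the fibroblast sum 71.0 to 91.3 and 74.3 to 98.9 CPM, with 3 of 8 fibroblast markers at 0 in every library. Spi1, the target of the compound, had 366 ± 18.4 CPM in control libraries and 329 ± 20.1 CPM in treated ones (log2 fold change -0.15 ± 0.07, SE, edgeR adjusted p 0.206).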

How the data were processed

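Raw read counts per gene, with no normalisation, were deposited by the authors as 1 table, which also gives gene lengths. The submitters' processing notes list CASAVA 1.8, HISAT2 2.0.5 and featureCounts 1.5.0-p3, whereas the methods of the study name LifeScope. The build and strandedness were not given in the sources used here. Coordinates are given as GRCm38 because 98.33% of identifiers also found in GENCODE M21, and 9 of the 10 genes (not Fosl1), had the same start and end there.

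Groups followed the treatment label. The AP-1 genes and the lists of related genes, written from general knowledge with some genes on 2 lists, were chosen with earlier results of these data known. Counts were fitted with edgeR 4.0.16 in R 4.3.3 (quasi-likelihood, TMM, filterByExpr, group as the only term), tested on simulated data, with Benjamini-Hochberg adjustment over 14174 genes. The study named DESeq2 for its comparison, and DESeq2 1.42.0 and limma 3.58.1 (voom) were alternatives, besides other scalings and filters, robust fitting, an offset for length, a block for the replicate number, an offset for GC content (chosen after seeing the data) and the omission of each library. CPM used TMM-scaled totals. Likeness used genes with a mean log2 CPM of at least 5. From each list, up to 4 called genes with the lowest and up to 4 with the highest log2 fold change were eligible to be named, and marker lists were shown by their most abundant genes, apart from genes said to be named after their values were seen. Not every eligible gene is reported here. Promoter windows are from RefSeq. Counting error of reads without molecular identifiers is only part of the error, and no batch was labelled.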

Additional observations from a re-analysis of the deposited data

How the results depend on the processing

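The direction of Fos, Fosl2, Jun, Junb, Jund, Batf3 and Atf3 was kept in all 17 alternatives. Fos and Batf3 stayed past the threshold in 16 of 17 and Junb in 14 of 17, with losses only among the fits that left out 1 library. In those fits, 0 to 4 genes of the family were called lower (0 without control replicate 1, 4 without DB2313 replicate 1 or 3) and none higher, 328 to 1097 of all genes were called higher and 411 to 1311 lower, and 0 to 1 immediate-early genes were called higher. The log2 fold change of Fosl1 ranged from -0.073 to 0.74 and that of Batf from -0.13 to 0.048 in them, with adjusted p above 0.5 throughout. These fits have fewer samples by construction, and the cause of the higher counts without DB2313 replicate 3 was not tested. Jund also passed with the offset for gene length, alone and with the block (adjusted p 0.0224 and 0.0210), and Fosl2 without DB2313 replicate 3. All other scalings, filters and tests gave 3 genes lower and none higher.

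The deviations of same-numbered libraries from their group means correlated at 0.0047, -0.025 and -0.11 over all genes tested. Genes with low counts weighed as much as others in these values, so pairing by replicate number is not excluded. With the replicate block the same number of AP-1 genes, 3, was lower, and 502 genes in all were higher and 629 lower. At 3 to 18 counts per library, Fosb and Fosl1 were limited by depth.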
